A study of Rattus norvegicus with 12 samples.

Results

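The genes followed here are 10 members of the insulin-like growth factor (IGF) axis in rat cardiac fibroblasts and in cells derived from them. They are the ligand gene Igf1, its receptor gene Igf1r, the binding protein genes Igfbp2, Igfbp3, Igfbp4, Igfbp5, Igfbp6 and Igfbp7, and the receptor substrate genes Irs1 and Irs2. They were chosen by gene symbol from the 32545 genes of the deposited count table. Each symbol matched 1 gene, and 10 of 10 were among the 14399 genes that passed the filter on low counts.

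RNA was sequenced from 4 groups of cultured cells with 3 biological replicates each, as the design text states. RCF are the parental cardiac fibroblasts of rat heart, labelled wild type and not treated, which served as controls. GS are immortalized cells derived from them by viral overexpression of the transcription factors Sall4 and Gata4, kept undifferentiated. GS_diff1 are GS cells kept in a medium named CMM, which the labels call cardiomyocyte differentiation. In GS_diff2 the same medium was supplemented with EGM2, which the labels call cardiomyocyte and endothelial differentiation. EGM2 is the name of a commercial endothelial growth medium, whose supplements as sold include an IGF1 analogue. The contents used here are not listed in the labels. All 4 groups are labelled as primarily cultured cardiac fibroblasts. The labels give no strain, age, sex or time in culture, nor the viral promoter, nor whether GS is 1 clone.

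IGF1 is a secreted growth factor that binds the receptor tyrosine kinase IGF1R and, through it, acts on growth, survival and metabolism. The activated receptor phosphorylates the docking proteins IRS1 and IRS2, which recruit PI3 kinase and so engage Akt, mTOR and the FoxO factors. Outside the cell, IGF-binding proteins hold IGFs in the medium, on the matrix or away from the receptor, and proteases such as pappalysin cut them and free the ligand. In the heart, fibroblasts and macrophages are known sources of IGF1.

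Libraries held 16255682 to 23117864 counts. A level is given as CPM, counts divided by the library's total in units of 1e6 after scaling for composition (TMM), and ± after a level is the SD over the 3 libraries of a group. Sall4 had 0 counts in every RCF library, and stood at 246 ± 8.58 CPM in GS, falling to 225 ± 4.67 CPM in GS_diff1 and to 69.6 ± 2.55 CPM in GS_diff2. Gata4 was already at 206 ± 3.43 CPM in RCF and was 2.89-fold higher in GS (595 ± 7.21 CPM). The treatment text of the labels names viral overexpression for every sample, RCF included, while the design text calls RCF untreated. The Sall4 counts of RCF go with the design text, and Gata4 does not separate the groups in this way. Of 12 fibroblast markers, all were detected in RCF, GS and GS_diff1, and all but Tcf21 in GS_diff2. Between GS and RCF, 5 of them were higher in GS, such as Pdgfra (7.07-fold), and 5 lower, such as Tcf21 (48.6-fold) and Dcn (31.4-fold). By the same edgeR test, 35.0% of all tested genes were higher and 36.3% lower. In the GS libraries, Tcf21 had 3, 7 and 10 counts and Dcn 33, 18 and 7. Both were at 4 counts or fewer in each GS_diff1 library. In bulk RNA, fewer cells of a type and less RNA per cell cannot be told apart, which applies to every level below.

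Promoter sequences of the 4 genes with the largest differences between GS and RCF are shown because Igfbp2 moved against Igf1, Igfbp5 and Igfbp6. They come from RefSeq (GRCr8 build), which held 9 of the 10 genes. Each is the 250 bases before the annotated start, 5′ to 3′ on the gene's strand. Igfbp2 lies at chr9:81864561-81864810 on the plus strand, Igfbp5 at chr9:81914188-81914437 on the minus strand, Igf1 at chr7:24172282-24172531 on the plus strand and Igfbp6 at chr7:135154669-135154918 on the plus strand. Capitals mark matches, on either strand, to the GATA motif (GATA with A or T before it and A or G after it), to the A/T-rich motif ATATT, which zinc fingers of SALL4 are known to favour, to the TATA box TATAAA, and to the GC box GGGCGG. No motif overlapped another in these windows.
Igfbp2: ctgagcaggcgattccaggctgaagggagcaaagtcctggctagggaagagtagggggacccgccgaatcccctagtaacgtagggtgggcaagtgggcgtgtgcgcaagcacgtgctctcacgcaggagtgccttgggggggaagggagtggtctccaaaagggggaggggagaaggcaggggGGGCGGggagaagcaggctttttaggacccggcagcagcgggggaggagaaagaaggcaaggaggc
Igfbp5: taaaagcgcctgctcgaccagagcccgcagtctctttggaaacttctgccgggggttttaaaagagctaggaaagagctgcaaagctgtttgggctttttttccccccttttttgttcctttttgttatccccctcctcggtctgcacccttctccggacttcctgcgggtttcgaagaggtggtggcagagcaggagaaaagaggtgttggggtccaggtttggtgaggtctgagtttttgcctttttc
Igf1: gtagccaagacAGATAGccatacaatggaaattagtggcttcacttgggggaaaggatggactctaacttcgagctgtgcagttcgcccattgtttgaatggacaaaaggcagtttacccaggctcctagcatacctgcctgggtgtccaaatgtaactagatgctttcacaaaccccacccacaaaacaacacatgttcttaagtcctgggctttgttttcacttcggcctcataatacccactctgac
Igfbp6: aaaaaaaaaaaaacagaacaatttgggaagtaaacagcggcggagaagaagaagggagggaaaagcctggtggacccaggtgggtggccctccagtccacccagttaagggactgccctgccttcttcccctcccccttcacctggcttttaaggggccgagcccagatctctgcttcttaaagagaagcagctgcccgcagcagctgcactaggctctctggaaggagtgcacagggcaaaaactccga

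The Igfbp2 window held 1 GC box, 66 bases before the start, and had a GC content of 64.0% with 11 CG dinucleotides. The median over all 33469 promoters of that table was 51.2% with 5 CG dinucleotides. The Igf1 window held 1 GATA match, 239 bases before the start, and had a GC content of 46.8% with 3 CG dinucleotides. The Igfbp5 and Igfbp6 windows held none of the motifs, at GC contents of 51.6% and 54.8%. A GATA match is in 27.0% of all promoters, ATATT in 26.1%, TATAAA in 12.9% and GGGCGG in 30.5%. Among the other members, the Igfbp7 window held 4 GC boxes, Irs1 2 and Igf1r 1, Igfbp4 held 1 TATAAA match 40 bases before the start, and Igfbp3 held none. These matches describe letters only and no binding was measured.

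Between GS and RCF, 9 of the 10 genes passed the test (edgeR quasi-likelihood, Benjamini-Hochberg adjusted p under 0.05 over all tested genes), 5 higher and 4 lower in GS. Of all tested genes, 71.3% passed it, 35.0% higher and 36.3% lower. With so many genes called, a call alone says little about these members. Changes of at least 2-fold were seen in 7 of 10 members, against 25.9% of all tested genes. The median absolute log2 change was 1.54 over the members and 0.52 over all genes. The members were chosen with earlier results of these data known, so such contrasts, here and below, are descriptions and not tests. Higher in GS were Igfbp2, Igfbp4, Irs2, Irs1 and, by 1.08-fold, Igfbp7. Lower were Igfbp5, Igfbp6, Igf1 and Igfbp3. The libraries of GS and RCF did not overlap for those 9 genes, as for 74.2% of all genes.

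In GS_diff1 against GS, 10 of 10 members passed the same test, 2 higher (Igf1 and Igfbp5) and 8 lower, where 64.3% of all genes passed, 32.0% higher and 32.3% lower. In GS_diff2 against GS, 10 of 10 passed, 3 higher (Igf1, Igf1r and Igfbp5) and 7 lower, where 67.0% of all genes passed, 33.3% higher and 33.7% lower. The median log2 change over the members was -0.96 in GS_diff1 and -0.57 in GS_diff2, where that of all genes was 0 in both. Changes of at least 2-fold were seen in 7 members in GS_diff1 and 5 in GS_diff2, against 18.2% and 21.5% of all genes. These comparisons share the GS libraries with each other and with the comparison to RCF. Between the media, GS_diff2 against GS_diff1, 10 of 10 members passed, 5 higher and 5 lower, and the higher were Igf1r, Igfbp4, Igfbp5, Igfbp6 and Igfbp7. Of all genes, 63.7% passed, 32.1% higher and 31.5% lower. At least 2-fold were 4 members, against 19.0% of all genes. The libraries of the groups compared did not overlap for any of the 10 members in these 3 comparisons, where 67.0%, 70.3% and 67.8% of all genes had none overlapping.

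**Figure D1:**
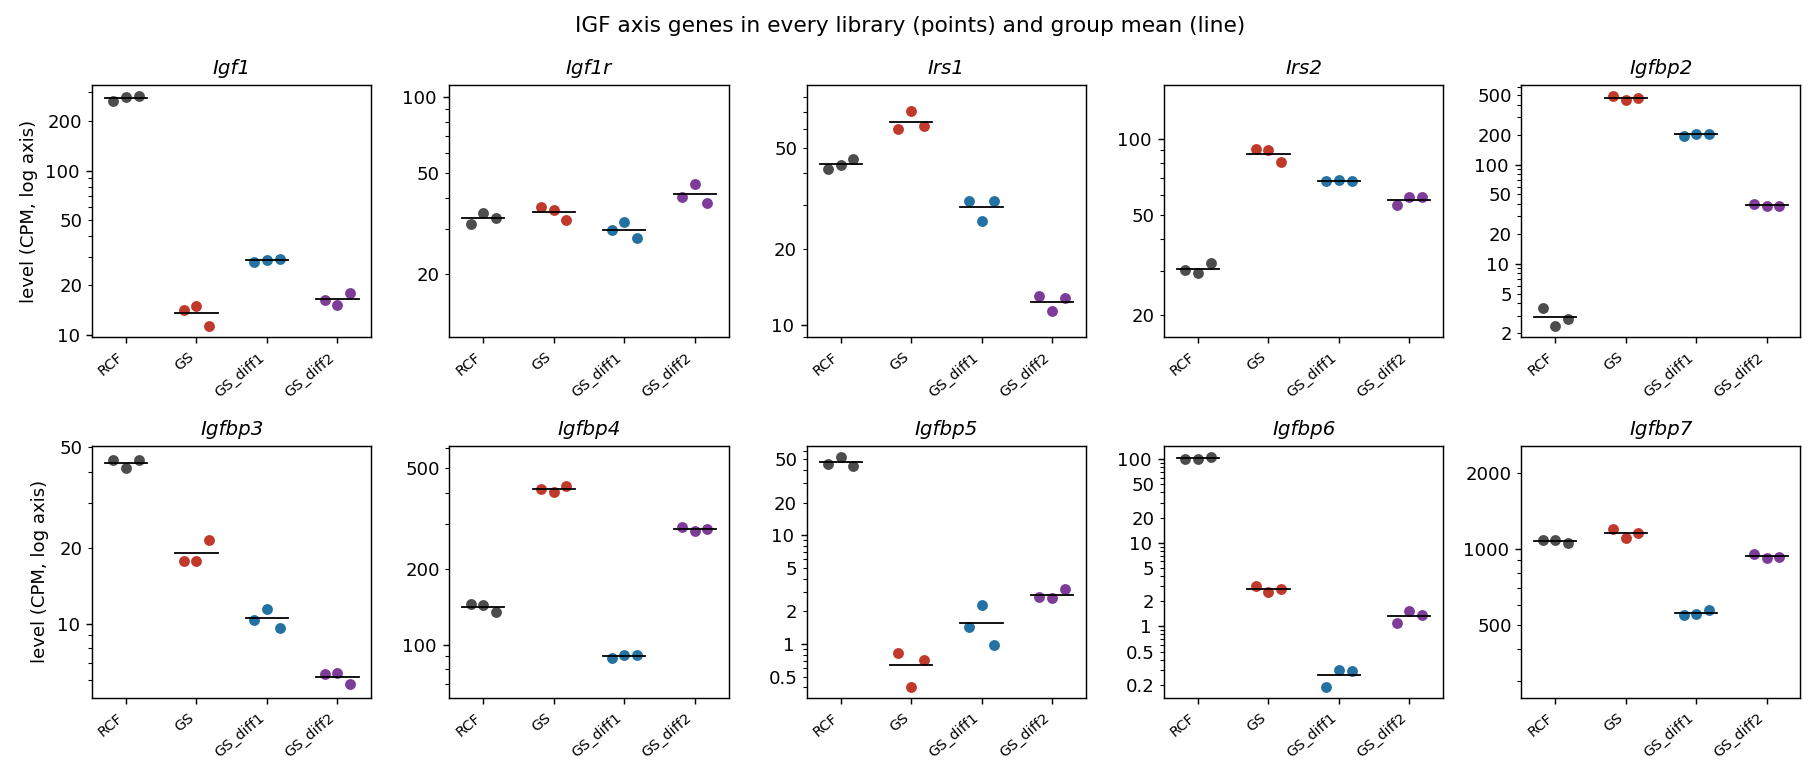
Level of each of the 10 genes in every library (points, CPM on a log axis whose range differs between panels) with the group mean (line), for RCF, GS, GS_diff1 and GS_diff2 with 3 libraries each. Igfbp2 runs from 2.90 CPM in RCF to 468 in GS, Igfbp5 and Igfbp6 fall to a few CPM or less in all 3 groups of GS cells, and Igf1r stays between 27.65 and 45.3 CPM in all 12 libraries.

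Igf1 (ENSRNOG00000004517, Rnor_6.0 chr7:28412198-28486609, plus strand), the ligand gene, was highest in the parental cells and lowest in GS. Its level was 267, 280 and 283 CPM in the 3 RCF libraries (277 ± 8.83) and 14.2, 15.0 and 11.3 CPM in GS (13.5 ± 1.95). It was 27.9, 28.7 and 28.9 CPM in GS_diff1 (28.5 ± 0.536) and 16.2, 15.2 and 18.1 CPM in GS_diff2 (16.5 ± 1.47). All RCF libraries were thus far above all others, and no 2 groups overlapped. The level was 20.3-fold lower in GS than RCF (log2 change -4.34 ± 0.0684 SE, edgeR adjusted p = 3e-28). Against GS it was 2.09-fold higher in GS_diff1 (adjusted p = 9.88e-13) and 1.21-fold higher in GS_diff2 (log2 change 0.27 ± 0.0813, adjusted p = 0.00456). The last call rested on 1 library, as the adjusted p was 0.0562 and the log2 change 0.17 without GS replicate 3. GS_diff1 and GS_diff2 remained 9.71-fold and 16.8-fold below RCF.

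Leukocyte markers were also highest in RCF. The summed level of 6 leukocyte genes was 85.7 to 91.4 CPM in the RCF libraries, 1.16 to 1.91 in GS, 2.57 to 3.42 in GS_diff1 and 3.32 to 4.34 in GS_diff2. Of these genes, only Cd3e was at 0 in RCF, while Ptprc, Adgre1 and Cd3e were at 0 in GS, Ptprc, Adgre1 and Lyz2 in GS_diff1, and Adgre1, Lyz2 and Cd3e in GS_diff2. Their part in the Igf1 difference was not tested.

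Igf1r (ENSRNOG00000014187, chr1:128924966-129206516, plus strand) encodes the receptor for IGF1 and varied least of the 10 genes, with a highest group mean 1.38 times the lowest. Its level was 31.6, 34.7 and 33.2 CPM in RCF, 36.7, 35.6 and 32.7 in GS, 29.8, 32.1 and 27.65 in GS_diff1, and 40.1, 45.3 and 38.3 in GS_diff2. The GS libraries overlapped those of RCF, and so did those of GS_diff1, while GS_diff2 was above every other library. GS and RCF did not differ by the test (log2 change 0.08, 95% interval -0.08 to 0.24, edgeR adjusted p = 0.352). The difference was below 0 with scaling by library totals alone, at -0.02 (adjusted p = 0.832). The level was 1.38-fold higher in GS_diff2 than in GS_diff1 (log2 change 0.47 ± 0.0759, adjusted p = 3.55e-06). It was 1.17-fold lower in GS_diff1 than in GS (adjusted p = 0.0102) and 1.18-fold higher in GS_diff2 than in GS (adjusted p = 0.00696). Those last calls were lost when single libraries were left out. For GS_diff1 against GS the adjusted p was 0.0572 with library totals alone, 0.0696 without GS replicate 1 and 0.0642 without GS_diff1 replicate 3. For GS_diff2 against GS it was 0.0862 without GS_diff2 replicate 2.

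Irs1 (ENSRNOG00000014597, chr9:88033668-88086488, minus strand) and Irs2 (ENSRNOG00000023509, chr16:83824430-83848684, plus strand) encode the docking proteins that carry the signal from the insulin and IGF1 receptors. Irs1 stood at 41.4, 43.2 and 45.3 CPM in RCF and at 59.65, 70.3 and 61.2 CPM in GS. In the media it fell to 31.1, 25.8 and 30.95 CPM in GS_diff1 and to 13.0, 11.3 and 12.8 CPM in GS_diff2. The groups did not overlap, and their order was GS, RCF, GS_diff1 and GS_diff2 from high to low. Irs1 was 1.47-fold higher in GS than in RCF (log2 change 0.56 ± 0.0759, edgeR adjusted p = 1.47e-07). It was 2.18-fold lower in GS_diff1 (log2 change -1.12 ± 0.0784) and 5.15-fold lower in GS_diff2 (-2.37 ± 0.0851) than in GS. GS_diff2 was also 2.37-fold below GS_diff1 (adjusted p = 1.75e-13).

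Irs2 followed another order, GS, GS_diff1, GS_diff2 and RCF. It was at 30.15, 29.3 and 32.0 CPM in RCF and at 90.9, 89.7 and 80.9 CPM in GS. GS_diff1 libraries held 68.1, 68.7 and 67.7 CPM and GS_diff2 libraries 54.5, 58.7 and 58.65 CPM. Every library of the 3 groups of GS cells was above every RCF library. The level was 2.86-fold higher in GS than in RCF (log2 change 1.52 ± 0.0579, edgeR adjusted p = 3.42e-20), and in the media it was 1.28-fold (GS_diff1) and 1.52-fold (GS_diff2) lower than in GS. Against RCF, Irs2 was higher by 1.88-fold in GS_diff2 (adjusted p = 1.28e-14), where Irs1 was 3.50-fold lower (adjusted p = 6.25e-18). Per kilobase of the authors' gene model, Irs1 (8.08 CPM per kb) was above Irs2 (4.69) in RCF. It was below Irs2 in GS_diff1 (5.47 and 10.48) and in GS_diff2 (2.31 and 8.81). In GS it was also below (11.9 and 13.4), but the libraries of the genes overlapped there.

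Igfbp2 (ENSRNOG00000016957, chr9:80118029-80144789, plus strand) encodes a secreted binding protein that also carries an integrin-binding motif. It showed the widest rise of the 10 genes between RCF and GS. Its level was 3.59, 2.36 and 2.74 CPM in RCF (2.90 ± 0.629) and 488, 444 and 472 CPM in GS (468 ± 22.4). It fell in both media, to 197, 203 and 206 CPM in GS_diff1 (202 ± 4.91) and to 40.3, 38.5 and 38.5 CPM in GS_diff2 (39.1 ± 1.04). Groups did not overlap, and even GS_diff2 was above every RCF library. Igfbp2 was 159-fold higher in GS than in RCF (log2 change 7.31 ± 0.0696, edgeR adjusted p = 3.2e-33). Against GS it was 2.32-fold lower in GS_diff1 (-1.21 ± 0.0431) and 11.97-fold lower in GS_diff2 (-3.58 ± 0.0495). GS_diff2 was 5.16-fold below GS_diff1 (adjusted p = 5.75e-25) and 13.3-fold above RCF.

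Of 8 epithelial and mesothelial markers, 6 were higher and 2 lower in GS than in RCF, where 35.0% and 36.3% of all genes were. The lower ones, Upk3b (6.63-fold, edgeR adjusted p = 3.94e-06) and Wt1 (5.33-fold, from 37.2 CPM in RCF, adjusted p = 1.5e-16), are mesothelial. The mesothelial markers did not all fall, as Msln was 2.35-fold higher in GS than in RCF (adjusted p = 1.11e-09). It was 35.9-fold above RCF in GS_diff2. The sum is carried in GS mostly by Cdh1, Krt8 and Krt18, at 211, 201 and 161 CPM. The summed level of 8 such genes was 43.7 to 46.4 CPM in RCF, 631 to 652 in GS, 2271 to 2294 in GS_diff1 and 803 to 822 in GS_diff2. Krt18 was at 0 in RCF and Upk3b in GS_diff2. Igfbp2 was highest in GS and the marker sum in GS_diff1, where Krt8 (1159 CPM) and Krt18 (726 CPM) carried most of it. Of the 8 markers, only Krt19 had the group order of Igfbp2. It was at 25.4 CPM in GS, 20.29 in GS_diff1, 7.415 in GS_diff2 and 0.415 in RCF. The part of these markers in the Igfbp2 difference was not tested.

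Igfbp4 (ENSRNOG00000010635, chr10:86950557-86962578, plus strand) encodes a binding protein that restrains IGF action until pappalysin cuts it. RCF libraries held 145, 143 and 135 CPM (141 ± 5.12) and GS libraries 415, 402 and 425 CPM (414 ± 11.5). The level was 88.65, 90.8 and 90.7 CPM in GS_diff1 and 292, 281 and 288 CPM in GS_diff2. GS and GS_diff2 were above RCF and GS_diff1 below it, with no overlap. Igfbp4 was 2.94-fold higher in GS than in RCF (log2 change 1.56 ± 0.0346, edgeR adjusted p = 3.34e-26). It was 4.60-fold lower in GS_diff1 than in GS (-2.20 ± 0.036), and 1.44-fold lower in GS_diff2 (-0.53 ± 0.0334). The media themselves differed by 3.19-fold, with GS_diff2 higher (1.67 ± 0.0358, adjusted p = 2.28e-26).

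Igfbp7 (ENSRNOG00000002050, chr14:33010300-33070190, plus strand) encodes a matrix-associated relative of the classical binding proteins that binds IGFs with low affinity. It was the most abundant of the 10 genes per kilobase in every group. RCF libraries held 1077, 1081 and 1048 CPM, GS libraries 1199, 1106 and 1157, GS_diff1 libraries 545, 549 and 570, and GS_diff2 libraries 953, 916 and 926. GS_diff1 was the low group. Igfbp7 was 2.08-fold lower in GS_diff1 than in GS (log2 change -1.06 ± 0.0293, edgeR adjusted p = 1.82e-23) and 1.24-fold lower in GS_diff2 (-0.31 ± 0.0288). GS_diff2 was 1.68-fold above GS_diff1 (adjusted p = 8.87e-20). The difference between GS and RCF was 0.11 ± 0.0288 (adjusted p = 0.00109), and 0.01 (adjusted p = 0.73) with scaling by library totals alone. The gene overlaps Polr2b by 113 bases and Rpl39 by 324 bases on the other strand, with group means of up to 120 and 2.06 CPM, and whether counting used strand is not given in the sources used here.

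Igfbp3 (ENSRNOG00000061910, chr14:87457647-87465374, minus strand) encodes the main IGF carrier of blood serum. It stepped down from group to group, in the order RCF, GS, GS_diff1 and GS_diff2. The level was 44.6, 41.2 and 44.4 CPM in RCF, 17.7, 17.7 and 21.5 in GS, 10.4, 11.45 and 9.62 in GS_diff1, and 6.33, 6.39 and 5.75 in GS_diff2. Each group lay below the one before it in that order without overlap. Igfbp3 was 2.29-fold lower in GS than RCF (log2 change -1.20 ± 0.0928, edgeR adjusted p = 1.21e-12). Against GS it was 1.80-fold lower in GS_diff1 (-0.85 ± 0.0993) and 3.07-fold lower in GS_diff2 (-1.62 ± 0.104), and GS_diff2 was 1.70-fold below GS_diff1 (adjusted p = 3.04e-07).

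Igfbp5 (ENSRNOG00000017206, chr9:80150211-80167033, minus strand) encodes a binding protein that attaches to the extracellular matrix. It was largely a gene of the parental cells, with 44.8, 52.2 and 43.0 CPM in RCF (46.7 ± 4.9). In GS it was at 0.826, 0.405 and 0.708 CPM, which rested on 18, 7 and 11 counts. GS_diff1 libraries held 1.43, 2.27 and 0.985 CPM, from 30, 45 and 17 counts. GS_diff2 libraries held 2.70, 2.67 and 3.19 CPM, from 52, 61 and 61 counts. RCF stood far above the rest, and the groups of GS cells were low but did not overlap. Igfbp5 was 70.4-fold lower in GS than RCF (log2 change -6.14 ± 0.224, edgeR adjusted p = 2.99e-16). It was 2.39-fold higher in GS_diff1 (adjusted p = 0.000578) and 4.30-fold higher in GS_diff2 (adjusted p = 3.11e-07) than in GS, at levels still 29.5-fold and 16.4-fold below RCF.

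Igfbp6 (ENSRNOG00000010977, chr7:143749221-143754054, plus strand) encodes the binding protein that prefers IGF2 over IGF1. Its level was 100.1, 100.7 and 105 CPM in RCF (102 ± 2.83) and 3.03, 2.60 and 2.83 CPM in GS (2.82 ± 0.213). GS_diff1 libraries held 0.190, 0.303 and 0.290 CPM, from only 4, 6 and 5 counts. GS_diff2 libraries held 1.09, 1.53 and 1.36 CPM, from 21, 35 and 26 counts. The 4 groups did not overlap, and GS_diff1 was the lowest of them. Igfbp6 was 35.9-fold lower in GS than RCF (log2 change -5.17 ± 0.0994, edgeR adjusted p = 7.58e-28). It was 10.7-fold lower in GS_diff1 than in GS (-3.42 ± 0.22, adjusted p = 2.12e-14) and 2.12-fold lower in GS_diff2 (-1.08 ± 0.153, adjusted p = 3.28e-07). GS_diff2 was 5.08-fold above GS_diff1 (adjusted p = 2.33e-09). The 386-fold difference between RCF and GS_diff1 rested on the few counts given above.

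**Figure D2:**
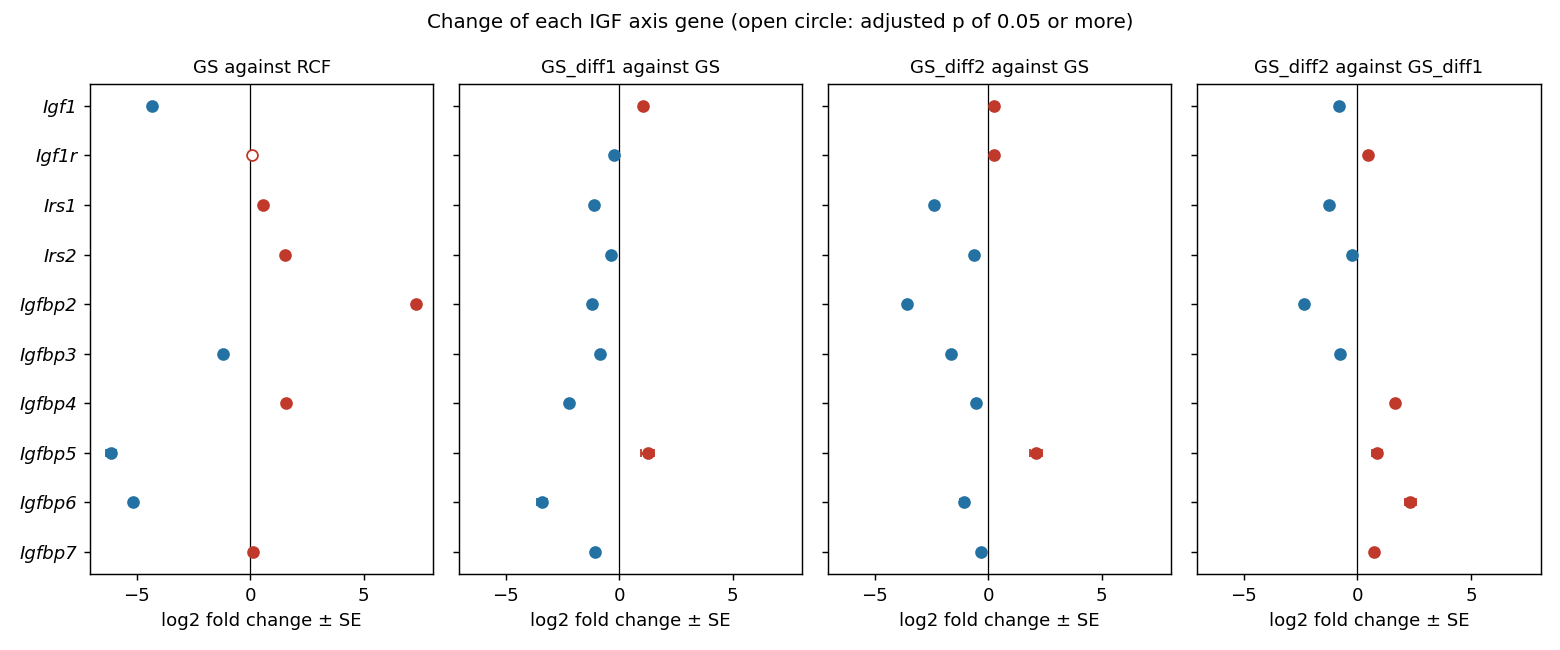
Log2 fold change of each gene (points, bars are the SE of the edgeR fit) in the 4 main comparisons, red higher and blue lower in the group named first, open where the adjusted p was 0.05 or more. The only open point is Igf1r in GS against RCF (0.08), and the points range from -6.14 (Igfbp5) to 7.31 (Igfbp2), both in GS against RCF.

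The medium groups were also set against RCF directly. In GS_diff1 against RCF, 9 of 10 members passed the test, 2 higher (Igfbp2 and Irs2) and 7 lower, where 75.4% of all genes passed, 38.0% higher and 37.4% lower. Their libraries did not overlap, as for 77.8% of all genes, and 6 changed by at least 2-fold, against 32.6% of all genes. Igf1r did not pass (log2 change -0.15, 95% interval -0.31 to 0.01, edgeR adjusted p = 0.076). This last result depended on the scaling and on a single library, with an adjusted p of 0.0285 with library totals alone and 0.0426 without GS_diff1 replicate 2. In GS_diff2 against RCF, 10 of 10 passed, 4 higher and 6 lower, where 72.5% of all genes passed, 37.1% higher and 35.4% lower. None of the 10 overlapped between the groups, as for 76.4% of all genes, and 7 changed by at least 2-fold, against 29.2% of all genes. The 4 were Igfbp2 (13.3-fold), Igfbp4 (2.04-fold), Irs2 (1.88-fold) and Igf1r (log2 change 0.32, adjusted p = 0.000416). Igfbp4 lay on opposite sides of RCF in the media, 1.56-fold below it in GS_diff1 and 2.04-fold above it in GS_diff2. Igf1, Igfbp3, Igfbp5, Igfbp6, Irs1 and Igfbp7 were below RCF in both. All of these comparisons share the RCF libraries.

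Levels per kilobase allow the members to be ranked against each other within a group. In RCF, Igfbp7 (970 CPM per kb), Igf1 (144), Igfbp6 (95.45) and Igfbp4 (64.7) led, and Igfbp2 (2.26) came last. Igf1r, Irs1 and Igfbp5 had overlapping libraries there, at 8.09, 8.08 and 7.96 CPM per kb. In GS the leading genes were Igfbp7 (1047), Igfbp2 (365.5) and Igfbp4 (190), and all other members were at 13.4 CPM per kb or less. Among all 14399 tested genes, Igf1 went from rank 513 in RCF to rank 7995 in GS, and Igfbp2 from rank 10607 to rank 190. Igfbp7 stayed at the top, at rank 47 in RCF and 56 in GS, then 136 in GS_diff1 and 79 in GS_diff2. The receptor gene Igf1r held ranks from 6804 to 7923 in the 4 groups.

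The makeup of the binding protein transcripts differed between the groups. The 6 binding protein genes summed to 1158 ± 16.3 CPM per kb in RCF and 1613 ± 63.6 in GS, and to 707 ± 16 in GS_diff1 and 1012 ± 20.1 in GS_diff2. Igfbp7 made up 83.7% ± 0.242 of that sum in RCF and 64.9% ± 0.288 in GS, then 71.2% ± 0.333 in GS_diff1 and 83.5% ± 0.0643 in GS_diff2. Igfbp2 was 0.196% ± 0.0417 of it in RCF and rose to 22.65% ± 0.195 in GS and 22.3% ± 0.195 in GS_diff1, and was 3.02% ± 0.0285 in GS_diff2. Igfbp6 was 8.25% ± 0.347 of it in RCF and at most 0.163% in the groups of GS cells. It ranked after Igfbp7 in RCF per kilobase, but after Igfbp4 too without division by length (7.27% and 10.02%). Igfbp4 held 5.59% in RCF and 5.85% in GS_diff1, and 11.8% in GS and 13.0% in GS_diff2. The share in RCF and GS_diff2 was thus similar for Igfbp7, but the remainder was mostly Igfbp6 and Igfbp4 in RCF and mostly Igfbp4 in GS_diff2. Without Igfbp7, the sum was 188 ± 0.619 CPM per kb in RCF and 566 ± 22.1 in GS, then 204 ± 4.36 in GS_diff1 and 167 ± 2.93 in GS_diff2. These shares are descriptions of transcripts per length and carry no test.

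**Figure D3:**
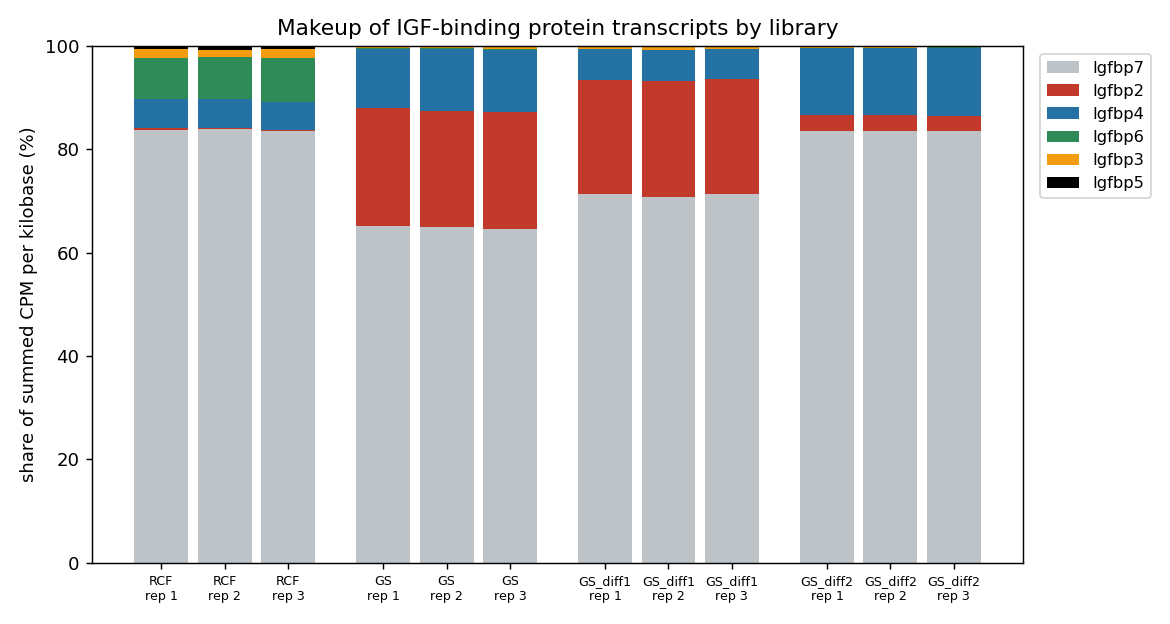
Share of each of the 6 binding protein genes in their summed CPM per kilobase (stacked bars, percent) in each of the 12 libraries. Igfbp7 (grey) fills 83.7% in RCF and 64.9% in GS, Igfbp2 (red) is visible mainly in GS and GS_diff1 at 22.65% and 22.3%, and Igfbp6 (green) mainly in RCF at 8.25%.

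Of 61 other genes of the pathway, listed by role, 55 were tested. In GS against RCF, 24 were higher and 19 lower, in GS_diff1 against GS 21 and 19, in GS_diff2 against GS 24 and 21, and in GS_diff2 against GS_diff1 25 and 22. The share called was 78.2%, 72.7%, 81.8% and 85.5%, against 71.3%, 64.3%, 67.0% and 63.7% of all genes, and the median absolute log2 change was 0.55, 0.38, 0.57 and 0.57 over the list against 0.52, 0.44, 0.48 and 0.42 over all genes.

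Among the other ligands and receptors, 5 of 7 genes were tested. Igf2, the fetal ligand gene, was nearly absent from RCF, at 0.211, 0.359 and 0.615 CPM, and was 1.47, 1.79 and 1.42 CPM in GS. It was 14.9, 14.6 and 14.9 CPM in GS_diff1 and 92.1, 89.4 and 92.4 CPM in GS_diff2. It rose at each of these steps, by 9.48-fold in GS_diff1 (log2 change 3.24 ± 0.13, edgeR adjusted p = 1.78e-19) and by 58.4-fold in GS_diff2 (5.87 ± 0.118, adjusted p = 3.94e-27) against GS. Where Igf1 was the more abundant ligand transcript in RCF (144 against 0.0701 CPM per kb), Igf2 was the more abundant in GS_diff2 (16.2 against 8.56 CPM per kb). Igf2r, whose product takes IGF2 to the lysosome, was 2.29-fold lower in GS (933 ± 71.4 CPM) than in RCF (2135 ± 23.7, adjusted p = 1.42e-16). Insr, the insulin receptor gene, was 2.01-fold higher in GS than in RCF (93.7 ± 7.09 against 46.5 ± 3.6 CPM, adjusted p = 1.03e-14), and 1.41-fold and 2.15-fold lower than GS in GS_diff1 and GS_diff2. Ghr, the growth hormone receptor gene, was 6.82-fold lower in GS than RCF (6.37 ± 2.06 against 44.1 ± 1.77 CPM, adjusted p = 1.89e-14). Insrr, an insulin receptor-related kinase gene, had 2, 0 and 1 counts in RCF and 4, 4 and 1 in GS_diff1, against 1.92 ± 0.382 CPM in GS and 6.33 ± 1.18 CPM in GS_diff2. Ins1 and Ins2, the insulin genes, and Igfbp1 had 0 counts in all 12 libraries, which allows up to 3 counts in a library.

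The proteases that cut binding proteins, and their inhibitors, counted 11 tested genes, with 6 higher and 3 lower in GS against RCF, 2 and 8 in GS_diff1 against GS, and 5 and 6 in GS_diff2 against GS. That is 81.8%, 90.9% and 100% called, where 71.3%, 64.3% and 67.0% of all genes were, about equally in each direction. Pappa, the protease of IGFBP4, was 5.51-fold higher in GS than in RCF (88.99 ± 9.81 against 16.1 ± 1.71 CPM, edgeR adjusted p = 2.04e-20). In GS_diff1 it was at 63.6 ± 1.87 CPM, 1.40-fold below GS and 3.94-fold above RCF. Only in GS_diff2 was it back near the RCF level, at 13.7 ± 1.04 CPM, 6.50-fold below GS (adjusted p = 5.75e-21). Stc2, whose product inhibits pappalysin, was at 62.4 ± 3.96 CPM in GS and at 6.67 ± 1.14 and 7.35 ± 1.36 CPM in GS_diff1 and GS_diff2. It fell by 9.31-fold and 8.47-fold (adjusted p = 1.73e-18 and 2.34e-18). Stc1, its relative, was 3.53-fold lower in GS_diff1 than in GS and 6.44-fold higher in GS_diff2 than in GS_diff1 (adjusted p = 4.05e-11). Mmp14 and Timp1, a membrane matrix protease and a metalloprotease inhibitor, were 4.12-fold and 4.32-fold lower in GS than RCF. Mmp2 fell 4.79-fold in GS_diff1 against GS, from 2210 ± 27.2 to 461 ± 5.55 CPM. Plau, the urokinase gene, was 6.30-fold higher in GS_diff2 than in GS and 8.76-fold higher than in GS_diff1 (15.3 ± 1.08 CPM in GS_diff2). Esm1, the gene of the endothelial proteoglycan endocan and the 1 tested gene among 4 other binding and carrier proteins, was 2.97-fold higher in GS than in RCF. It was 4.18-fold higher in GS_diff2 (160 ± 6.85 CPM) than in GS.

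Of the adaptors and receptor regulators, 13 were tested, with 5 higher and 4 lower in GS against RCF, 7 and 1 in GS_diff1 against GS, and 8 and 5 in GS_diff2 against GS. The shares called, 69.2%, 61.5% and 100%, compare with 71.3%, 64.3% and 67.0% of all genes. The adaptor genes Grb14 and Grb10, whose products bind and restrain the insulin and IGF1 receptors, were among those higher in GS. Grb14 was 19.7-fold higher (170.5 ± 6.77 against 8.68 ± 0.355 CPM, edgeR adjusted p = 2.48e-32). Grb10 was 4.45-fold higher (955 ± 11.9 against 215 ± 3.6 CPM, adjusted p = 1.5e-32). In GS_diff1 they were higher still than in GS, by 1.46-fold (adjusted p = 4.9e-13) and 1.10-fold (adjusted p = 1.9e-05), and in GS_diff2 lower than in GS, by 3.70-fold and 1.86-fold. Gab1, a docking protein gene, was 2.85-fold higher in GS than in RCF. Socs2, a brake on growth hormone signalling, was 1.78-fold higher in GS_diff1 than in GS, and Grb2, which links receptors to Ras, 1.29-fold higher. Socs3, a suppressor of cytokine signalling, and Dok1, a docking protein gene, rose 2.46-fold and 3.07-fold in GS_diff2 against GS. Irs3, a relative of Irs1 and Irs2, was 3.59-fold higher in GS_diff2 than in GS_diff1, at 3.40 ± 0.311 against 0.928 ± 0.702 CPM (adjusted p = 0.000368).

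In the PI3 kinase, Akt, mTOR and FoxO branch, with 22 tested genes, 6 were higher and 10 lower in GS against RCF, 8 and 7 in GS_diff1 against GS, and 6 and 6 in GS_diff2 against GS. The shares called, 72.7%, 68.2% and 54.5%, compare with 71.3%, 64.3% and 67.0% of all genes. At least 2-fold changes were seen in 4, 0 and 3 of the 22 genes, where 25.9%, 18.2% and 21.5% of all genes had one. Pik3cb, a catalytic subunit gene of PI3 kinase, was 4.93-fold higher in GS than in RCF (47.8 ± 2.53 against 9.65 ± 1.54 CPM, edgeR adjusted p = 4.65e-20) and 2.11-fold lower in GS_diff2 than in GS. Foxo1, a transcription factor gene that Akt restrains, was 2.58-fold higher in GS than in RCF and 2.43-fold lower in GS_diff2 than in GS. Eif4ebp1, a repressor of translation under mTOR control, was 2.38-fold higher in GS (242.5 ± 9.67 CPM) than in RCF, and 1.81-fold and 2.14-fold lower than GS in GS_diff1 and GS_diff2. Foxo3 and Pik3r1, a regulatory subunit gene of PI3 kinase, were 1.92-fold and 1.64-fold lower in GS_diff1 than in GS, and neither passed the test in GS_diff2 against GS (adjusted p = 0.493 and 0.979).

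All 3 genes of the IGF2 mRNA-binding proteins, which bind and stabilise transcripts, were higher in GS than in RCF. Of all tested genes, 35.0% were higher in that comparison. Igf2bp1 had 2, 1 and 0 counts in the RCF libraries and stood at 65.8 ± 2.6 CPM in GS, then at 139 ± 1.66 in GS_diff1 and 54.15 ± 2.97 in GS_diff2. Igf2bp3 was 3.47-fold higher (edgeR adjusted p = 5.37e-17) and Igf2bp2 2.00-fold higher (adjusted p = 1.99e-10) in GS than in RCF. In GS_diff1 against GS, Igf2bp1 was 2.12-fold and Igf2bp3 1.70-fold higher.

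**Figure D4:**
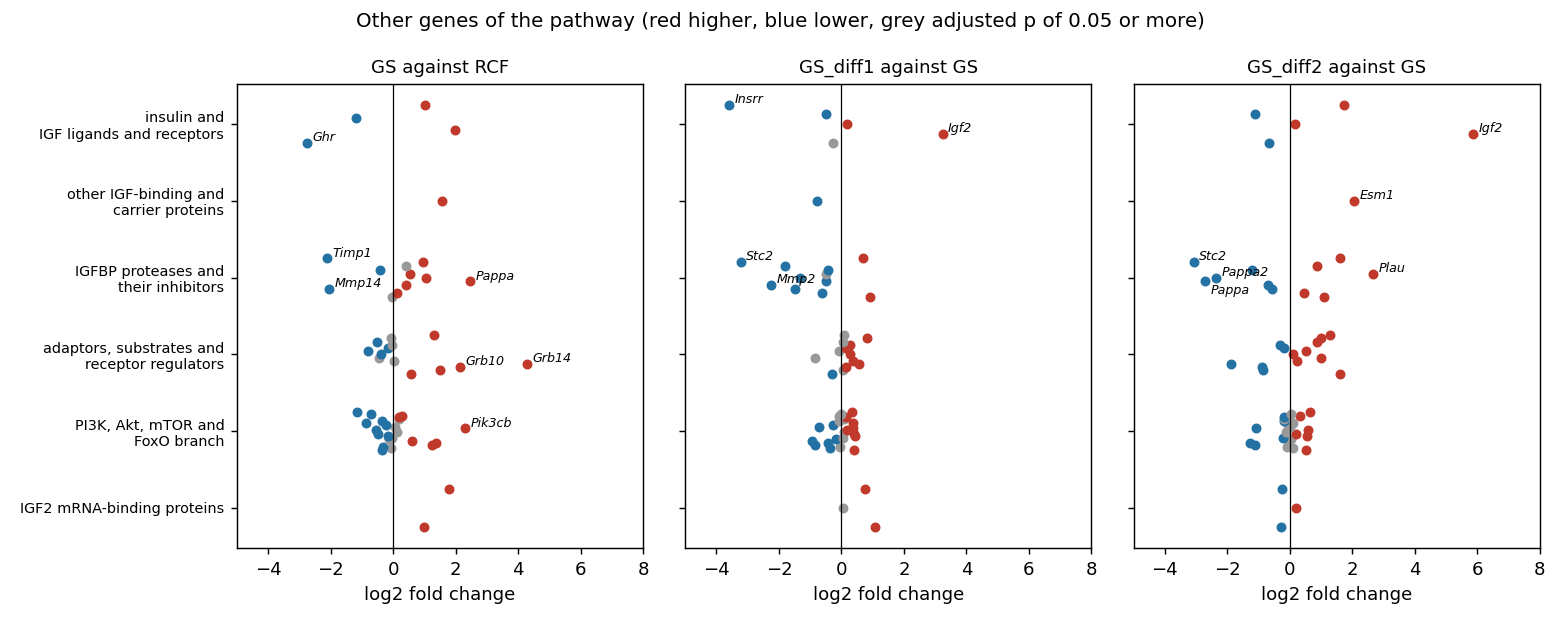
Log2 fold change of the 55 tested pathway genes by role in GS against RCF, GS_diff1 against GS and GS_diff2 against GS (points, red higher, blue lower, grey not called; names from an absolute change of 2). Insrr and Igf2bp1 are left out of the panel against RCF, where RCF held at most 2 counts in a library, and Igf2 stands farthest to the right in both media, at 3.24 and 5.87.

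The genes with the nearest pattern were sought over the 12 libraries by the root mean square (RMS) difference of log2 CPM after centring each gene. Members with group means spanning at least 1 log2 unit and other genes with a mean of at least 1 CPM were used. Igf1r, with a span of 0.46, was left out. Nearest to Igfbp2 was Lrp2, the endocytic receptor megalin gene (RMS 0.227), at 1.14, 205, 111 and 19.9 CPM in RCF, GS, GS_diff1 and GS_diff2. Its second neighbour, Upk3a, was farther off (0.547), at 0, 11.8, 11.8 and 0.945 CPM. Nearest to Igf1 was Cryab, a small heat shock protein gene (0.264), at 1310, 93.2, 181 and 85.7 CPM. Nearest to Irs1 were Figf, the gene of the lymphatic growth factor VEGF-D (0.135), at 234, 352, 166 and 59.9 CPM, and the transcription factor gene Maf (0.17). Irs2 was nearest to Tfeb, a lysosomal transcription factor gene (0.102). The neighbours of Igfbp3 were Pdgfd (0.171) and Adamts2 (0.202), a growth factor and a procollagen protease gene. Those of Igfbp4 were Ifitm10 (0.204) and Hspb8 (0.218). Igfbp5 and Igfbp6 had looser nearest genes, Wnt4 (0.541) and the matrix proteoglycan gene decorin, Dcn (0.587). Both members had few counts in GS cells, and the part of this in the looser match was not tested. Dcn stood at 32.8, 1.00, 0.0703 and 0.419 CPM in the 4 groups and is on the fibroblast marker list. These are descriptions over 12 libraries of 4 groups, and largely follow the 4 group means.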

How the data were processed

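Total RNA of 12 cultures was prepared and amplified into libraries, per the labels' protocols. The authors deposited whole-number read counts per gene that are not normalized. Bowtie 0.12.2 and the builds mm8 and Rnor_6.0 are named, without roles, in the submitters' processing notes. Gene positions in the deposited table were taken here to be Rnor_6.0, the rat build of those notes. The counting program, its use of strand, and how reads over exon junctions were treated are not stated in the labels or headers used here.

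Counts were fitted with edgeR 4.0.16 (R 4.3.3, limma 3.58.1), with TMM factors, filterByExpr and 1 robust quasi-likelihood model over all 12 libraries (8 residual degrees of freedom, biological coefficient of variation 9.72%). Two-sided contrasts were adjusted by Benjamini-Hochberg over 14399 genes, with a threshold of 0.05, and 18146 genes were not tested. CPM used TMM-scaled totals, and levels per kilobase used the gene model length in the table. The script was tested on simulated counts. The variance between replicates of a group was 4.54 to 7.87 times that of sampling noise (chi-square per degree of freedom, genes with a mean of at least 50 counts, 12 pairs). Member counts ranged from 4 to 26130 in a library. Promoters came from a RefSeq table of GRCr8. Of 2 rows named Grb2, that with more counts was used, and the marker Pecam1 was not matched.

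The members and lists were chosen with earlier results of these data known. Named were all members, Sall4 and Gata4, the 3 called genes of each pathway list with the largest change and at least 1 CPM, Igf2, Igf2r and Insr, and for each member the 2 genes nearest in pattern, not all of which are printed. Alternatives were library totals, DESeq2's size factors in edgeR, DESeq2 1.42.0, limma-voom, no filter, only the libraries compared, a replicate block, and each replicate left out. Whether counts come from separate cultures rests on the design text.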

Additional observations from a re-analysis of the deposited data

How the results depend on the processing

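For the 10 members in 6 comparisons, 771 of 780 alternative results kept the direction and the side of the threshold. Of the others, 1 reversed, 6 lost and 2 gained a call, and they concern Igf1r, Igfbp7 and Igf1 as given in the report. The reversal was Igf1r in GS against RCF, not called in either fit, at -0.02 with library totals alone, and the cause was not tested. Library totals alone shifted the median of all genes by -0.10 in GS against RCF and by 0.08 in GS_diff2 against GS. With each replicate left out in turn, 9 to 10 members were called in every comparison. Pathway genes called ranged from 42 to 44 in GS against RCF, 39 to 41 in GS_diff1 against GS, 42 to 46 in GS_diff2 against GS and 44 to 45 in GS_diff2 against GS_diff1, where all libraries gave 47.

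The replicate numbers showed no strong pairing of the libraries, which does not exclude a weak one. The deviations of 18 same-number pairs correlated at -0.045 to 0.0759, against -0.0753 to 0.0462 for other pairs. Of 12 libraries, 5 correlated best with their own number. With a replicate block, the members called were 9 in GS against RCF, 10 in GS_diff1 against GS, 10 in GS_diff2 against GS, 10 in GS_diff2 against GS_diff1, 9 in GS_diff1 against RCF and 10 in GS_diff2 against RCF, as without it, and pathway genes called were 44 in place of 45 in GS_diff2 against GS.

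Without division by gene length, the share of Igfbp7 among the binding proteins was 76.1% in RCF and 56.1% in GS, then 64.6% in GS_diff1 and 73.5% in GS_diff2, because longer transcripts then weigh more, and most other shares moved by more than 1 SD. Depth limits Igfbp5 and Igfbp6 in GS cells, where a library held as few as 4 counts.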

Other observations

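Igfbp2 and Igfbp5 are neighbours on chromosome 9 (Rnor_6.0), 5.42 kb apart and facing each other, and they moved in opposite directions. In GS against RCF the log2 change was 7.31 for Igfbp2 and -6.14 for Igfbp5, and in GS_diff2 against GS it was -3.58 and 2.11. Of the nearby genes within 250 kb, Smarcal1, a DNA annealing helicase gene, did not pass the edgeR test in GS against RCF (log2 change 0.06, adjusted p = 0.614), and the ribosomal protein gene Rpl37a changed by 0.53 (adjusted p = 0.000176). Igfbp6 on chromosome 7 lies 145 kb from the keratin gene Krt8, whose level was 0.987 ± 0.191 CPM in RCF, then 201 ± 4.39 in GS and 1160 ± 8.68 in GS_diff1, and 268 ± 5.1 in GS_diff2, while Igfbp6 was at 102, 2.82, 0.261 and 1.33 CPM. Both were extreme in GS_diff1 among the GS cells, Krt8 as the highest and Igfbp6 as the lowest. Krt8 was picked among the neighbours of Igfbp6 after its values were seen. Of the tested genes nearer to Igfbp6, Krt18 (116 kb) and Espl1 (143 kb) also had their highest mean of the GS cells in GS_diff1. Tns2 (28.6 kb), Csad (27.6 kb), Znf740 (56.8 kb), Rarg (85.9 kb) and Mfsd5 (128 kb) had their lowest mean there, as Igfbp6 did. Spryd3 (11 kb), Eif4b (47.8 kb) and Itgb7 (66.8 kb) had neither. An opposite course to Igfbp6 was thus not general among its neighbours.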
